A study of Mus musculus with 6 samples.

Results

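The IgLON genes encode a family of neuronal adhesion proteins, and all 5 mouse members, Opcml, Ntm, Lsamp, Negr1 and Iglon5, were followed here in the newborn cortex with and without the amino acid carrier gene Slc7a5. They were picked by gene symbol out of 52550 gene identifiers, and each had enough reads to be tested. The family was selected from earlier results of the same genotype comparison, in which Opcml had come out lower. Its genotype values are therefore given as a description and support no claim about the family.

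PolyA RNA was sequenced from 1 cortical hemisphere of each of 6 mouse pups at postnatal day 2, on the C57BL6/J strain per the labels. The knockout group (n = 3) had the genotype Slc7a5fl/fl with Emx1Cre+, and the control group (n = 3) was Slc7a5fl/fl with Emx1Cre-, so floxed alleles are present in both and Cre in knockouts alone. Emx1 directs Cre to the dorsal forebrain lineage of excitatory neurons and most cortical glia, while interneurons, microglia and vessels keep the gene. Library names carry a letter, A, B or C, and each letter occurs once per genotype. Cre itself and loss of Slc7a5 cannot be told apart in this design, and in whole tissue fewer cells of a type and less RNA per cell cannot be told apart either.

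IgLON proteins are made of immunoglobulin domains held on the outer face of the plasma membrane by a glycosylphosphatidylinositol (GPI) lipid anchor, with no part inside the cell. They bind themselves and each other across and along membranes, steer neurite growth and synapse formation, and can be released from the surface by metalloproteases. In the cortex they are mainly known from neurons. Opcml was isolated as an opioid-binding protein, Ntm is neurotrimin, Lsamp is the limbic system-associated membrane protein, and Negr1 is the neuronal growth regulator also called kilon. Iglon5 is best known as the target of autoantibodies in a human sleep and neurodegenerative disorder.

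On GRCm38, Opcml (ENSMUSG00000062257) lies on the plus strand of chromosome 9 from 27790775 to 28925410. Its neighbour Ntm (ENSMUSG00000059974) runs on the minus strand from 28994750 to 29963141. The ends of the neighbours face each other across 69.3 kb, in which 0 annotated genes lie whole. An antisense gene that overlaps Opcml, with 0 reads, runs on into this gap. Lsamp (ENSMUSG00000061080) occupies chromosome 16 from 39984361 to 42181679 and Negr1 (ENSMUSG00000040037) chromosome 3 from 156561794 to 157316445, both on the plus strand. Iglon5 (ENSMUSG00000013367) is on the minus strand of chromosome 7 from 43472904 to 43490075.

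All members except Iglon5 are among the longest genes of the mouse. Lsamp spans 2.197 Mb, the rank of 6 among 22028 protein-coding genes, and Opcml spans 1.135 Mb, the rank of 39. Ntm (968.4 kb) ranks 62 and Negr1 (754.7 kb) ranks 108, whereas Iglon5 covers 17.2 kb. Exons fill 0.783% to 1.39% of the 4 long genes and 15.3% of Iglon5.

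The start regions of the genes that differed most and least between the genotypes are shown to let their sequence be compared. They are RefSeq windows on GRCm38.p6 that run from 250 bases before to 50 bases after an annotated start, in the direction of the gene, with each CpG dinucleotide in capitals. The windows are chr9:27791049-27791348 (plus strand) for Opcml, chr7:43490162-43490461 (minus strand) for Iglon5 and chr3:156561544-156561843 (plus strand) for Negr1.
Opcml: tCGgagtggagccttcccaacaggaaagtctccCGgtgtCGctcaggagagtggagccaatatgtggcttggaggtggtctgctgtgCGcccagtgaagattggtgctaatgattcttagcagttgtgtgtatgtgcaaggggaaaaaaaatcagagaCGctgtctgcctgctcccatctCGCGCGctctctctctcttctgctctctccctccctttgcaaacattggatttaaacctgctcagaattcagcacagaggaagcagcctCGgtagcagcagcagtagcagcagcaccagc
Iglon5: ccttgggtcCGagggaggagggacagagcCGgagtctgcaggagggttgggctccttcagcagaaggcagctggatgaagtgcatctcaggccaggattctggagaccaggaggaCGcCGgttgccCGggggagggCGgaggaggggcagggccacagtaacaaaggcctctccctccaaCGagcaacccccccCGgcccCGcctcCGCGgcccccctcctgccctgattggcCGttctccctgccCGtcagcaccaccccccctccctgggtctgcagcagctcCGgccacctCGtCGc
Negr1: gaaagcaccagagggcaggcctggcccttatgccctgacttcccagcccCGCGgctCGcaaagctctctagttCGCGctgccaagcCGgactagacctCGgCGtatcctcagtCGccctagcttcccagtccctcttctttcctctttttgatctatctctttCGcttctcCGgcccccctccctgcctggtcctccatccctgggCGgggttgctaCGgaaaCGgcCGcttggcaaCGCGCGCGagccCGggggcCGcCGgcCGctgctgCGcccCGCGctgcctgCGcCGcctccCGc

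The Opcml window holds 9 CpG dinucleotides, that of Iglon5 16 and that of Negr1 29, against a median of 7 over 32851 such windows. Fewer CpG than in the Negr1 window were found in 87.1% of all windows, and fewer than in the Opcml window in 54.2%. RefSeq gives a pair of starts each for Ntm and Lsamp, with 2 and 19 CpG at Ntm and 12 and 3 at Lsamp. None of the 7 windows holds TATAAA, present in 13.6% of all windows on either strand, or TGACGTCA, the binding word of the CREB and ATF factors, present in 1.79%. TGATGNAA, the core of the element through which ATF4 acts in amino acid shortage, was also absent from these 7 and present in 3.97% of all. GGGCGG was found in the windows of Negr1 and Iglon5 and in 1 of the windows of Ntm, and in 35.7% of all. These are letters in a short window, and the counts per gene do not show which start a read came from.

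Levels were compared between members as CPM (read counts scaled to the size of the library) per kilobase of annotated exon, since the genes differ in length. On that scale the order was Iglon5 (123 ± 14.3), Ntm (63.6 ± 4.49), Opcml (15.6 ± 2.87), Negr1 (15.4 ± 0.943) and Lsamp (11.0 ± 0.983; SD over 6 libraries). The levels of Iglon5 and Ntm did not overlap with each other or with those of the other 3. The neighbours Opcml and Negr1 did not differ beyond their spread, with ranges of 11.5 to 19.9 and 13.98 to 16.5, and the lowest Opcml library (11.5) lay within the range of Lsamp (9.33 to 12.1). With the longest transcript as the length the order at the top turned, to 162 ± 11.5 for Ntm and 123 ± 14.3 for Iglon5, so which of them is the most abundant per length depends on the transcript model. The lower members kept their order, at 33.9 ± 6.24 for Opcml, 32.6 ± 1.99 for Negr1 and 21.6 ± 1.92 for Lsamp. Before length scaling, the members were among the more abundant of the 14913 genes tested, from Negr1 (162 CPM, at or above 91.2% of genes) to Ntm (514 CPM, 98.5%).

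**Figure D1:**
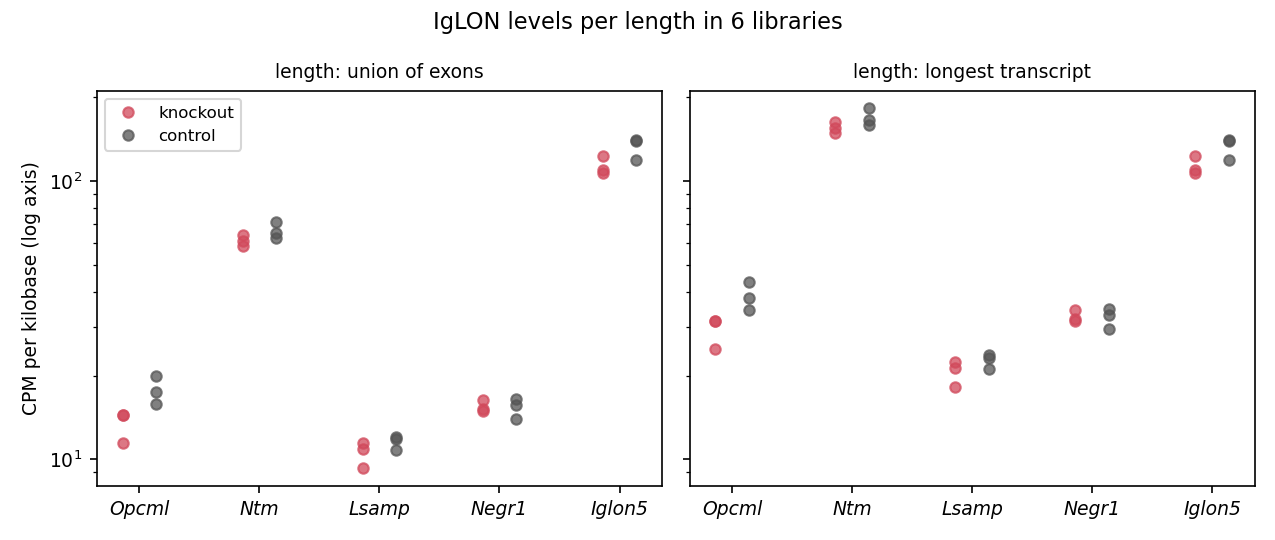
Levels of the 5 members in CPM per kilobase (log axis) in 3 knockout and 3 control libraries, 1 point per library, with the union of exons (left) or the longest annotated transcript (right) as the length. Iglon5 and Ntm stand above Opcml, Negr1 and Lsamp on both scales, and Ntm passes Iglon5 on the right.

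Slc7a5 itself, which encodes the light chain of the LAT1 carrier of large neutral amino acids, averaged 12.1 ± 3.20 CPM in knockouts and 29.0 ± 10.5 CPM in controls (SD, n = 3 each; log2 change -1.25 ± 0.28, SE; adjusted p = 0.400 in edgeR's quasi-likelihood test). Library depth was 8249436 to 10372582 gene counts. Reads outside annotated exons made up 27.4 to 27.9% of uniquely mapped reads in knockouts and 22.5 to 26.5% in controls, so this measure separated the genotypes. Reads in an exon but on the strand opposite to it count as outside in this measure. Cortical projection neuron markers were expressed in both groups, with 10 of 10 passing the filter on low counts. Xist, the RNA of the inactive X chromosome, stood at 961 CPM in knockout B and 918 CPM in control B and at most 2.95 CPM elsewhere.

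Opcml was lower in every knockout library than in any control library. It had 210, 210 and 167 CPM in knockouts A, B and C, against 253, 288 and 230 CPM in controls A, B and C. The closest libraries were knockouts A and B and control C, and knockout C and control B lay at the ends. The means were 196 ± 25.2 CPM in knockouts and 257 ± 29.3 CPM in controls (SD, n = 3 each), which puts the knockout level at 76.0% of the control level. The log2 change was -0.39 ± 0.12 (SE), with a 95% interval of -0.65 to -0.14. Within letters the difference was -0.27, -0.46 and -0.47 for A, B and C. The share of reads outside exons and the oligodendrocyte lineage markers, given with their values elsewhere in the text, separated the genotypes in the same libraries, and their part in the Opcml values was not tested.

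Opcml did not pass the all-gene edgeR test at an adjusted p under 0.05 (adjusted p = 0.473). It passed with the letter as a block (log2 change -0.40 ± 0.093, edgeR adjusted p = 0.0238), a fit in which the letters are taken to pair the libraries. With both libraries of a letter left out, the blocked edgeR adjusted p was 0.0250 without letter A, 0.0181 without letter B and 0.428 without letter C. These fits have fewer libraries, yet over all genes they called 228 without A and 161 without B, against 126 with every library. Without C they called 77. They are therefore no check on the call of Opcml.

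Iglon5 was lower in 2 of the 3 letters. It had 322, 287 and 281 CPM in knockouts A, B and C, against 313, 369 and 364 CPM in controls A, B and C. Knockout A lay above control A, so the groups overlapped, while the knockouts of B and C lay below all controls. The means were 297 ± 22.3 CPM in knockouts and 349 ± 31.1 CPM in controls (SD, n = 3 each), a log2 change of -0.23 ± 0.11 (SE, adjusted p = 0.708 in edgeR). Its 95% interval, not adjusted for the number of genes tested, ran from -0.46 to -0.0065. The letters gave 0.041, -0.37 and -0.37, and the blocked change was -0.36 without letter A and -0.16 without letter B or letter C.

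Ntm, the most abundant member by CPM, differed little. Its level was 490, 516 and 472 CPM in knockouts A, B and C, against 577, 526 and 503 CPM in controls A, B and C. Each knockout lay below the control of its letter, but knockout B lay above control C and the groups overlapped. The log2 change was -0.12 ± 0.10 (SE, adjusted p = 0.857 in edgeR), with letters at -0.24, -0.028 and -0.090. The 95% interval ran from -0.33 to 0.093.

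Lsamp showed the same arrangement. It had 187, 196 and 161 CPM in knockouts A, B and C, against 208, 203 and 185 CPM in controls A, B and C. Letter C was the lowest in both genotypes, and the knockouts of A and B lay above control C. The log2 change was -0.13 ± 0.11 (SE, adjusted p = 0.852 in edgeR), with a 95% interval of -0.36 to 0.097 and letters at -0.15, -0.049 and -0.21.

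Negr1 had the change nearest to 0. It stood at 160, 157 and 172 CPM in knockouts A, B and C, against 164, 147 and 173 CPM in controls A, B and C. The groups overlapped fully, and letter C was the highest in both. The log2 change was 0.011 ± 0.10 (SE, adjusted p = 0.995 in edgeR), and its 95% interval of -0.21 to 0.23 allows a change of about the size seen in Ntm or Lsamp. Without control B the value was -0.050 and without knockout C -0.031, so its sign depended on the libraries used.

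**Figure D2:**
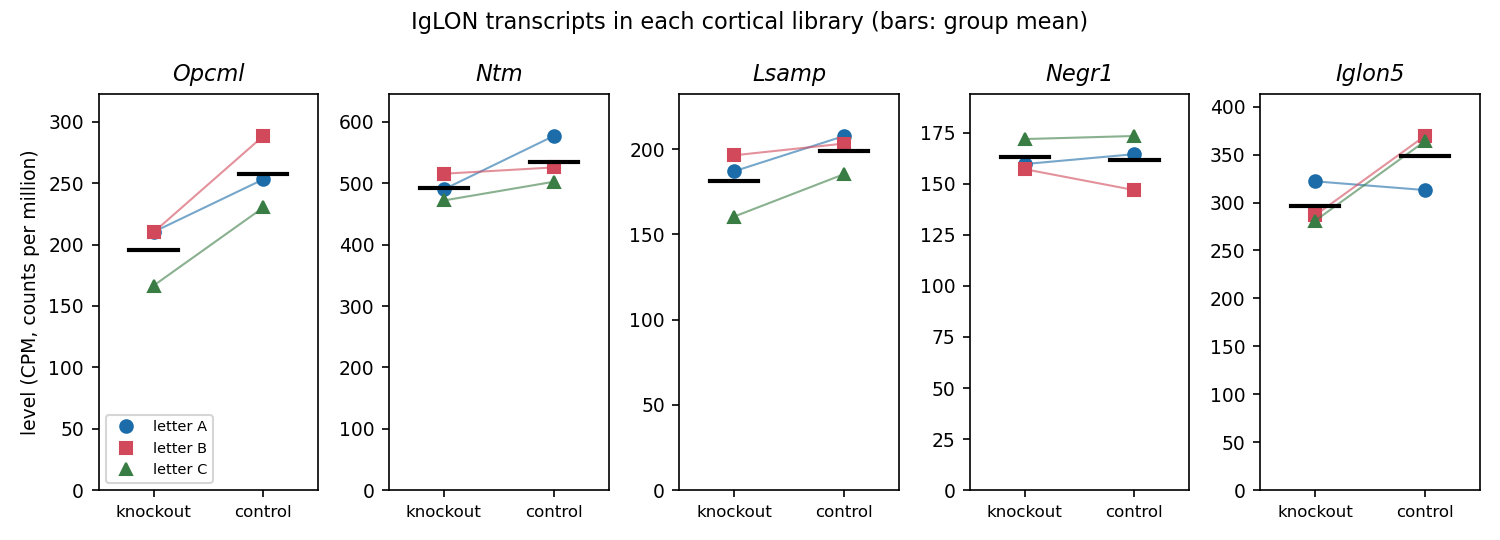
Level of each member in CPM in the 3 knockout and 3 control libraries, with a line joining libraries of the same letter and a bar at each group mean; every axis starts at 0. The knockouts of Opcml lie between 167 and 210 CPM, below the controls at 230 to 288 CPM, and the groups overlap in the other 4 genes.

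Counted over the family, 0 of 5 members passed in the unpaired edgeR fit, where 0.0335% of the 14913 genes did in either direction and 0.0134% with lower values in knockouts, and 1044 genes had an unadjusted p under 0.05. With the letter as a block 1 of 5 passed, Opcml, where 0.845% of all genes did in either direction and 0.516% with lower values in knockouts. In 1 of 5 all knockouts lay below all controls, which held for 6.28% of all genes. Opcml, Ntm and Lsamp were lower in the knockout of all 3 letters, as were 16.8% of genes. The log2 change was below 0 in 4 of 5, as in 49.8% of genes. The family was picked in view of this comparison, so nothing is read from these shares.

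**Figure D3:**
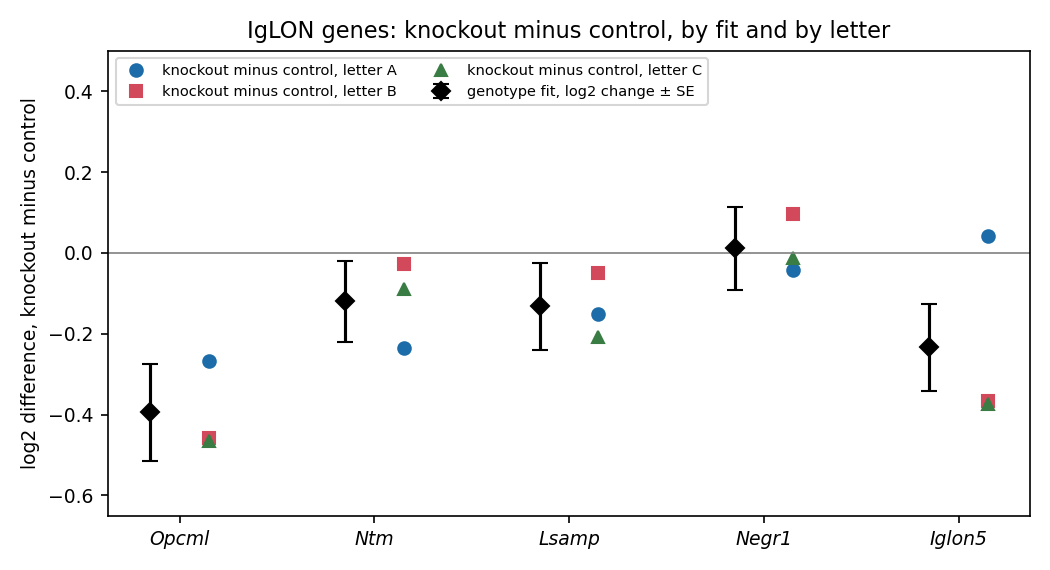
Difference between knockout and control on the log2 scale for each member, as the genotype fit with its SE (diamonds) and as knockout minus control within letters A, B and C. Opcml is below 0 in all 3 letters (-0.27 to -0.47), Negr1 lies on both sides of 0, and Iglon5 parts letter A (0.041) from B and C (both -0.37).

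Members were compared within a library through their ratios, which do not depend on library scaling. Opcml amounted to 42.9, 40.7 and 35.3% of the Ntm CPM in knockouts A, B and C, against 43.9, 54.8 and 45.8% in controls A, B and C. All knockouts were below all controls, by the smallest step in letter A. The ratio of Opcml to Negr1 CPM was 1.32, 1.34 and 0.969 in knockouts A, B and C, against 1.54, 1.96 and 1.33 in controls A, B and C. Knockout B lay just above control C. Per kilobase of exon the group means of these neighbours in the ranking changed order. Opcml averaged 13.5 ± 1.73 and Negr1 15.5 ± 0.751 in knockouts, while Opcml averaged 17.7 ± 2.02 and Negr1 15.4 ± 1.28 in controls (SD, n = 3 each). In control C, however, Opcml (15.9) lay below Negr1 (16.5), as it did in every knockout.

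The family taken as a sum was lower in every knockout. It came to 1369, 1366 and 1252 CPM in knockouts A, B and C, against 1516, 1534 and 1455 CPM in controls A, B and C. Group means were 1329 ± 66.8 CPM in knockouts and 1502 ± 41.1 CPM in controls (SD, n = 3 each). Opcml made up 14.7 ± 1.19% of the sum in knockouts and 17.1 ± 1.53% in controls. Sums of some related lists were also lower in every knockout. They were 2692 to 2816 CPM in knockouts and 2828 to 2994 CPM in controls for other GPI-anchored neuronal proteins. For transmembrane immunoglobulin adhesion proteins they were 7676 to 7844.5 CPM in knockouts and 7932 to 8277 CPM in controls. A sum gives most weight to abundant genes, and 21 of the 41 genes of this list had higher values in knockouts (median log2 change 0.0039). The other related lists had overlapping sums. Reported IgLON partners and cargo came to 2268 to 2354 CPM in knockouts and 2317 to 2356.5 CPM in controls. Genes of surface release came to 1277 to 1509 CPM in knockouts and 1482 to 1613 CPM in controls. For GPI anchor synthesis the sums were 864 to 1068 CPM in knockouts and 959 to 1095 CPM in controls. The family sum rests on genes that did not pass the unpaired fit singly and was not tested, as its members were chosen with these values in view.

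The members differed in how far their levels moved over the 6 libraries. Likeness was measured as the root mean square difference between log2 CPM profiles, each centred on its mean, so 0 is an identical profile. Genes that rise and fall together but by unlike amounts also score as different. Ntm and Lsamp were the closest pair (0.063) and Opcml and Negr1 the farthest (0.30). Opcml and its genomic neighbour Ntm differed by 0.19, more than Opcml and Lsamp (0.15) or Iglon5 (0.16), which lie on other chromosomes.

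Nearest profiles were sought among 9171 genes with at least 10 CPM on average. Genes whose symbols begin with Gm and a digit or end in Rik were left out. The profile nearest to Opcml was that of Il17d, a secreted cytokine (0.048). It had 49.0, 53.1 and 39.0 CPM in knockouts A, B and C, against 57.3, 68.6 and 55.1 CPM in controls A, B and C. Plxnd1, a semaphorin receptor (0.051), and Sstr1, a somatostatin receptor (0.055), followed. The profile of Opcml itself departed from its mean by 0.25 on this scale. The genes nearest to Iglon5 were Shisa4 (0.027), Chn2, a Rac GTPase-activating protein (0.034), and Fam185a (0.038). Nearest to Ntm were Smyd2, a lysine methyltransferase (0.027), Wdr33, a polyadenylation factor (0.032), and Fbxo41 (0.034). Lsamp had Lix1 (0.028), Hpca, a neuronal calcium sensor (0.029), and Mdh1, the cytosolic malate dehydrogenase (0.033). Negr1 was nearest to Cacna1d, an L-type calcium channel subunit (0.022), Cds2, an enzyme of phospholipid synthesis (0.023), and Tmem106b, a lysosomal membrane protein (0.025). Ntm and Negr1 departed from their own means by 0.091 and 0.081, so many steady genes come near them.

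Other annotated genes that overlap the members had few reads except at Negr1. Intron reads outside annotated genes have no position in these counts and could not be examined. The strand-specific counts placed 36 reads opposite to Opcml against 13010 on its strand, and 2 to 15 opposite to each of the others. Other annotated genes that overlap Opcml and Ntm had 2 and 2 reads on the member's strand and 0 and 1 on the opposite strand, summed over the 6 libraries. In Lsamp only the small nuclear RNA gene Gm22543 reached 0.1 CPM on average, with 7 reads. Iglon5 overlaps 0 other genes, and 0 of the overlapping genes share an exon with a member.

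Negr1 holds 8 genes on its own strand with 1898 reads, 6 of them of the class TEC, which GENCODE gives to transcripts awaiting experimental proof. Gm42946 (chromosome 3, 156646320 to 156648889) had 19.5, 19.5 and 15.5 CPM in knockouts A, B and C, against 19.9, 10.8 and 12.3 CPM in controls A, B and C (log2 change 0.33 ± 0.20, SE; adjusted p = 0.800 in edgeR). Gm43527 (157000417 to 157003594) had 6.48, 6.12 and 7.69 CPM in knockouts A, B and C, against 5.44, 7.57 and 5.81 CPM in controls A, B and C (0.11 ± 0.22; adjusted p = 0.948 in edgeR). The groups overlapped at both loci.

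Together the 6 TEC loci came to 22.9, 22.7 and 18.3% of the Negr1 CPM in knockouts A, B and C, against 21.8, 16.6 and 14.8% in controls A, B and C. The mean was 21.3 ± 2.59% in knockouts and 17.7 ± 3.63% in controls (SD, n = 3 each), and the groups overlapped through control A. Control A was also the control with the most reads outside exons (26.5%, against 22.5% and 23.0% in controls B and C). Whether these reads come from unspliced Negr1 RNA was not tested.

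**Figure D4:**
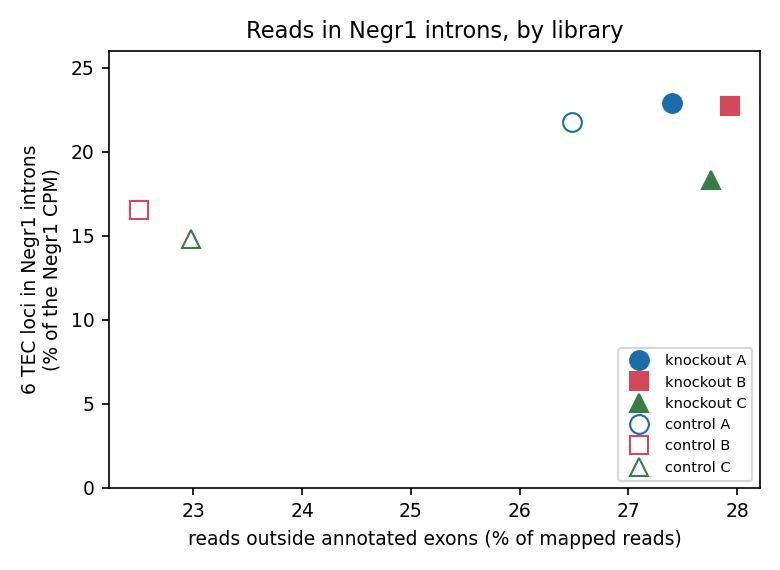
Summed CPM of the 6 TEC loci inside Negr1, as a percentage of the Negr1 CPM, against the share of uniquely mapped reads outside annotated exons, 1 point per library (filled for knockouts, open for controls). Controls B and C are low on both axes, at 22.5 and 23.0% of reads and 16.6 and 14.8% of Negr1, and control A lies near the knockouts.

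Other long genes had 0 calls in the unpaired fit, which called 0.0335% of all genes, so a count of 0 says little here. Among 201 tested protein-coding genes that span at least 500 kb and are not members, 82 had lower and 119 higher values in knockouts, with a median log2 change of 0.044, against 0.0011 over all genes tested. In the blocked fit 1 of these 201 was called, where 0.845% of all genes were. It was the receptor phosphatase Ptprk, with 169 CPM in knockouts and 220 CPM in controls (log2 change -0.38 ± 0.10, SE, blocked edgeR adjusted p = 0.0299). It was singled out after its values were seen.

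The proteins reported to bind IgLONs or to share their route showed 0 calls in either fit. Over all genes the unpaired fit called 0.0335% and the blocked fit 0.845%. With such shares, 0 calls say little about this list or the lists below. Of 6 tested, 3 had higher and 3 lower values, with a median log2 change of 0.025. The receptor tyrosine kinase Erbb2 had 2.38 ± 0.551 CPM in knockouts and 3.47 ± 0.858 CPM in controls (SD, n = 3 each; log2 change -0.54 ± 0.31). Npc2, a lysosomal cholesterol-binding protein reported as a Negr1 partner, had 213 ± 25.6 CPM in knockouts and 240 ± 34.5 CPM in controls (-0.17 ± 0.12).

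Genes that act on the release of surface proteins also had 0 calls in the unpaired fit. Of 22 tested, 7 were higher and 15 lower, with a median of -0.12. The list holds proteases, tetraspanins and phospholipases, but also the metalloprotease inhibitors Timp2, Timp3, Timp4 and Reck, which oppose release. These inhibitors were all among the lower genes, so the counts and the median mix genes of opposite action. The membrane metalloprotease Adam9 was called lower in the blocked fit (log2 change -1.02 ± 0.62 unpaired, blocked edgeR adjusted p = 0.0105), at 4.11 ± 3.27 CPM in knockouts and 8.53 ± 3.62 CPM in controls, where the groups overlapped. Tspan17 and Tspan33, tetraspanins that escort the sheddase ADAM10, had log2 changes of -0.34 ± 0.14 and -0.63 ± 0.26 (adjusted p = 0.657 and 0.667 in edgeR). In 5 of these 22 genes the groups did not overlap, where 12.2% of all genes did not.

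The enzymes that build and attach the GPI anchor had 0 calls in either fit, with 7 of 25 higher and 18 lower and a median of -0.071. Pigk, the catalytic subunit of the transamidase that joins the anchor to the protein, had -0.20 ± 0.13, and Pigb, an anchor mannosyltransferase, 0.37 ± 0.25. Other GPI-anchored neuronal proteins likewise had 0 calls, with 12 of 31 higher, 19 lower and a median of -0.051. The Nogo receptor Rtn4r had 25.5 ± 2.15 CPM in knockouts and 32.5 ± 6.62 CPM in controls, and contactin 1 (Cntn1) 231 ± 11.5 CPM in knockouts and 270 ± 15.5 CPM in controls (log2 change -0.23 ± 0.10; adjusted p = 0.700 in edgeR).

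Transmembrane adhesion proteins of the immunoglobulin superfamily, relatives that cross the membrane, were split, with 21 of 41 higher, 20 lower, 0 calls and a median of 0.0039. Igsf8 was at 78.7 ± 1.48 CPM in knockouts and 97.2 ± 7.48 CPM in controls (log2 change -0.30 ± 0.10; adjusted p = 0.526 in edgeR). Igsf21, a synaptic adhesion protein, was at 56.0 ± 2.53 CPM in knockouts and 69.5 ± 3.74 CPM in controls (-0.31 ± 0.10; adjusted p = 0.531). The median of the 5 IgLON genes was -0.13, beside 0.0011 for all genes.

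**Figure D5:**
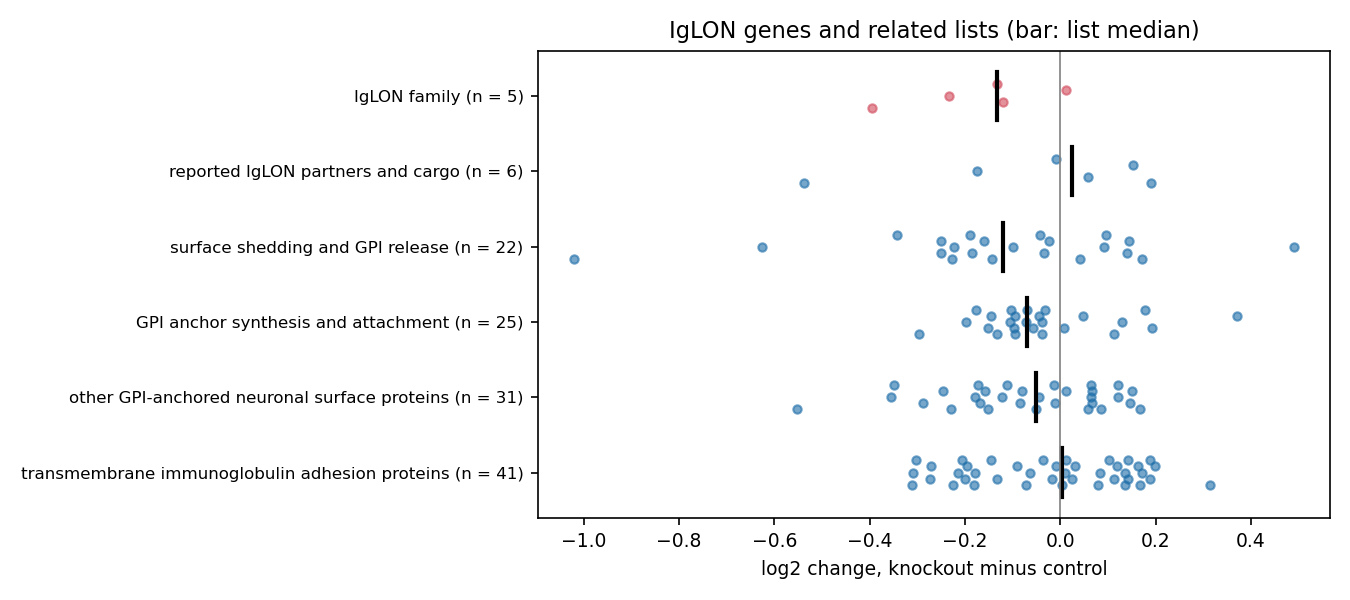
Log2 change, knockout minus control, of each tested gene in the IgLON family and 5 related lists (1 point per gene, spread vertically for legibility; bar at the list median). The IgLON points run from -0.39 to 0.011, and points of 3 of the related lists lie below that of Opcml.

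The unpaired edgeR fit called 0 genes in any of the 10 cell type lists, and 0.0335% of all genes. Of 10 projection neuron markers 7 had lower values in knockouts. Those called lower in the blocked fit included Rorb (log2 change -0.64 ± 0.12, edgeR adjusted p = 0.0942 unpaired and 0.00115 blocked) and the vesicular glutamate carrier Slc17a7 (-0.48 ± 0.12, edgeR adjusted p = 0.309 unpaired and 0.0160 blocked). The summed level of the list overlapped, at 2932 to 3296 CPM in knockouts and 3047 to 3391 CPM in controls. Oligodendrocyte lineage markers summed to 251 to 271 CPM in knockouts and 283 to 334 CPM in controls, without overlap, with 7 of 8 tested lower, 0 called, Gpr17 at -0.50 ± 0.18 and Mog at 0 reads. Interneuron markers had higher values in 9 of 10, summing to 1563 to 1920.5 CPM in knockouts and 1510 to 1627 CPM in controls, and Gad2 was called higher in the blocked fit (0.51 ± 0.16, edgeR adjusted p = 0.539 unpaired and 0.0191 blocked).

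The remaining lists had 0 calls in either fit, where 0.0335% (unpaired) and 0.845% (blocked) of all genes were called. Progenitor markers were higher in 10 of 10 (927 to 1171 CPM in knockouts, 925 to 1005 CPM in controls; Eomes 0.74 ± 0.24). Microglial markers were higher in 9 of 10 (157 to 199 CPM in knockouts, 133 to 166 CPM in controls; Csf1r 0.52 ± 0.16), and vascular markers in 8 of 10 (239 to 286 CPM in knockouts, 212 to 255 CPM in controls; Tie1 0.82 ± 0.34). Astrocyte markers were lower in 7 of 10 (758 to 854 CPM in knockouts, 758 to 876 CPM in controls; Fgfr3 -0.27 ± 0.12). Markers of striatum were lower in 7 of 10 (Drd1 -0.35 ± 0.16) and of red blood cells in 5 of 5 (Hbb-bt -0.30 ± 0.11), with overlapping sums in each. Thalamus markers were lower in 6 of 10, but Gbx2 was higher (0.66 ± 0.41), at 1.82 CPM in knockouts and 1.14 CPM in controls. Their sums overlapped, at 303 to 362 CPM in knockouts and 225 to 368 CPM in controls. The median sum was higher in knockouts (319 CPM) than in controls (241 CPM). The part of these cell types in the IgLON values was not tested.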

How the data were processed

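PolyA RNA of 6 cortical hemispheres was analysed, 3 per genotype. The authors deposited unnormalised counts per gene as written by STAR, and per the submitters' processing notes STAR 2.5.4 and the build GRCm38 were used. Which annotation release they counted on is not given in the sources used here. Column 3 of the deposited counts, the strand of the first read, was used, since it held 18.6 times as many reads as the opposite strand. Lines for unmapped, unassigned and ambiguous reads were kept out. Reads that map to several places are counted for no gene. Per the design text, each genotype has 3 biological replicates.

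Symbols, coordinates and exon lengths came from GENCODE release 21 for mouse (52403 identifiers found), and start regions from RefSeq on GRCm38.p6 (5 of 5 members matched). In R 4.3.3, edgeR 4.0.16 filtered genes (filterByExpr, 14913 tested), scaled libraries by TMM (factors 0.979 to 1.04) and compared genotypes by its quasi-likelihood test with robust dispersions (two-sided), calling genes whose p after Benjamini-Hochberg adjustment was under 0.05. CPM uses these library sizes. The SE is the log2 change over the square root of F. Per-letter differences and profiles use log2(CPM + 0.5). The fit was tested on simulated data. DESeq2 1.42.0 was an alternative.

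Deviations from group means, correlated over genes, gave 0.417, 0.342 and 0.211 for libraries of the same letter A, B and C. Libraries of different letters gave at most -0.0310. Deviations within a genotype cancel for each gene, so positive same-letter values make the different-letter values negative on average. Same-letter libraries were treated as pairs on the ground of this check alone, as the meaning of the letters is not labelled. Libraries of a genotype differed by more than sampling noise, with a chi-square of 7.54 or more for each degree of freedom.

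The members and lists were chosen with earlier results of these data known. All members were named, from each related list the 2 genes with the smallest p and any call, from each cell type list the gene with the smallest p (Slc17a7, called in the blocked fit, was named after its values were seen, and 1 other called gene is not reported here), for each member the 3 nearest profiles, and per locus the 2 overlapping genes with most reads.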

Additional observations from a re-analysis of the deposited data

How the results depend on the processing

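The number of genes called over the whole table depended on the fit. It was 5 in the unpaired edgeR fit, 10 with library totals only, 26 with DESeq2, 71 with no filter on low counts, 126 with the replicate block in edgeR and 23 with the block in DESeq2, and 1 to 9 with 1 library left out. With the block and both libraries of a letter left out it was 228 without letter A, 161 without letter B and 77 without letter C. The direction of Opcml, Ntm, Lsamp and Iglon5 was lower in all 16 alternatives. These fits reuse the libraries in view of which the family was chosen, so they give no separate support for the direction. For Opcml, whose groups do not overlap, leaving out libraries could hardly have reversed it. Opcml ranged from -0.47 to -0.29 and was called in 4 of them, all with the letter as a block (DESeq2 adjusted p = 0.0485 in 1); Ntm ranged from -0.16 to -0.054, Lsamp from -0.19 to -0.054 and Iglon5 from -0.36 to -0.16, with 0 calls. Negr1 had the opposite sign without knockout C (-0.031), without control B (-0.050) and, in the paired fit, without letter B (-0.023), and leaving out 1 library gave it -0.050 to 0.063. The block changed no other call among the members. Levels per kilobase with the longest transcript as the length were 33.9 for Opcml, 162 for Ntm, 21.6 for Lsamp and 32.6 for Negr1, by construction of the shorter length. Using library totals moved no level by more than its SD over the libraries. Leaving out 1 of 6 libraries cannot move their mean by more than that SD, so it was no check on the levels. Each member had at least 9419 reads over the 6 libraries. The SE of a log2 change rests on a spread between libraries that edgeR moderates over all genes, not on the member alone. Its parts from counting and from differences between pups were not separated.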
